A study of Rattus norvegicus with 9 samples.

Results

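Chemokines, interleukins and their receptors were followed in 9 RNA preparations of rat liver cells, each hybridised to its own Affymetrix Rat ST 1.0 array. The members were all genes whose symbol begins with Ccl, Cxcl, Ccr, Cxcr, Ackr or Il and a digit, or with Cx3c, and for which the annotation gave a probe set with 1 symbol. The rule found 115 genes of 14497 in all: 19 CC ligands, 12 CXC ligands, 1 CX3C ligand, 18 chemokine receptors, 34 interleukins and their soluble antagonists, and 31 interleukin receptor chains. All animals were F344 rats. One group of 3 arrays held adult hepatocytes from rats aged 5 to 6 weeks, freed by a collagenase perfusion in steps. The other groups, also of 3 arrays each, came from liver of rat fetuses on embryonic day 19, digested with collagenase and purified on magnetic columns with antibodies to leucine aminopeptidase (LAP) and to OC.2, a marker of ducts. The labels call them fetal hepatocytes and name one group LAP+/OC.2+ (OC.2+ below) and the other LAP+/OC.2- (OC.2- below). Since the isolation text is the same for both and the OC.2+ samples carry the short description LAP-OC2+, the grouping used here is that of the titles. The series compares the fetal subpopulations with each other and with adult hepatocytes.

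Chemokines are small secreted proteins that draw cells along a gradient by binding G protein-coupled receptors. CC and CXC chemokines are told apart by the spacing of their first cysteines, and atypical receptors take up chemokines without signalling through G proteins. Many interleukins, though not all, act on receptor chains that recruit JAK kinases or, for the interleukin-1 family, the adaptor Myd88 and NF-kB. Hepatocytes carry interleukin-6 and interleukin-1 receptors, through which they switch on acute-phase proteins. Before birth the liver is also a site of blood formation, where Cxcl12 and its receptor Cxcr4 hold blood progenitors in place.

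Values are log2 intensities of the deposited table, and a gene was called at limma adjusted p under 0.05 (Benjamini-Hochberg over all 14497 genes, n = 3 arrays per group). A gene described as higher or lower was called. Array medians of intensity ran from 79.5 to 81.0 (adult), 86.5 to 89.7 (OC.2-) and 87.7 to 88.9 (OC.2+). Precision is limited by the number of arrays: a member's log2 difference had a median standard error (given after ± for differences) of 0.102. Many members were dim. As a guide to the signal of genes that liver cells are not known to use, 53 olfactory receptor genes had a 95th percentile of 7.13, 7.25 and 7.46 in adult, OC.2- and OC.2+ cells. Of the members, 22, 22 and 12 lay above it, which is 19.1%, 19.1% and 10.4%, beside 36.4%, 33.1% and 27.4% of all genes. In no group did 86 members lie above it. These probe sets differ in their own brightness, so a value within that range does not show that a gene is off.

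All 10 hepatocyte markers lay above the olfactory range in adult and OC.2- cells and 9 of 10 in OC.2+ cells, where Hnf4a did not. Their summed intensity was 85381.2 to 92417.1 on the adult arrays, 76506.1 to 82596.7 on the OC.2- arrays and 33559.6 to 37085.9 on the OC.2+ arrays. The 4 measured hepatoblast markers all lay above it in both fetal groups, and 2 of them in adult hepatocytes. Of the 5 measured biliary markers (Krt19, Krt7, Epcam, Spp1 and Cftr) none lay above the range in any group, the OC.2+ cells included. Granulocyte markers lay above it for 9 of 10 genes in OC.2+ cells and for none in the others, with sums of 547.4 to 606.2 (adult), 613.2 to 696.7 (OC.2-) and 14453.3 to 15980.9 (OC.2+). The 6 endothelial markers summed to 659.7 to 862.2, 3285.5 to 4415.0 and 563.0 to 574.8, and the 10 macrophage markers to 1157.8 to 1278.4, 2206.1 to 2883.9 and 1701.4 to 2050.0, in the same order. The 9 stellate and mesenchymal markers, of which 4, 5 and 2 lay above the range, summed to 1102.3 to 1200.6, 4583.9 to 5327.0 and 3426.6 to 4137.6. On the OC.2+ arrays most of that sum was Vim (log2 11.299 to 11.649), and only Col1a1 (7.982 to 8.003) also lay above the range. Vim was not called between the fetal groups (0.24 ± 0.13, adjusted p = 0.195). The other 8 markers were all lower in OC.2+ than OC.2- cells, Dcn by 10.4-fold (adjusted p = 6.65e-10). For erythroid markers, 6 of 6 above the range in both fetal groups and none in the adult group, the sums were 430.6 to 494.2, 10677.9 to 13299.5 and 27201.9 to 27548.2. The part of such cells in the results below was not tested. In these bulk samples fewer cells of a type and less RNA per cell cannot be told apart.

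CXC ligand genes of chromosome 14 show several patterns found below, and their upstream sequence is given first. The RefSeq table held windows for 89 of the 115 members (build GRCr8), of which the 250 bases before the annotated start are shown for 6 of these genes. Cxcl1 and Cxcl2, attractants of neutrophils, and Cxcl10, an attractant of T cells, were higher in OC.2- cells than in adult hepatocytes. Cxcl9 and Cxcl11, which share the receptor Cxcr3 with Cxcl10, were lower, and Cxcl6 was called in no comparison. Capitals mark GGG and TTCC with any 3 bases between them, on either strand, a form of the NF-kB site. Matches that overlap are shown as 1 stretch, which happens where the letters read the same way on both strands.
Cxcl1 (chr14:17479322-17479571, - strand): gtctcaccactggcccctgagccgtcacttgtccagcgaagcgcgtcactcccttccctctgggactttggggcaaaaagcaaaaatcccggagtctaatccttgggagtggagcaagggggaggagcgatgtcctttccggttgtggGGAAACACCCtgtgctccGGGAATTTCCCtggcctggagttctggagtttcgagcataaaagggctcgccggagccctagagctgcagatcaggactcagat
Cxcl2 (chr14:17467256-17467505, - strand): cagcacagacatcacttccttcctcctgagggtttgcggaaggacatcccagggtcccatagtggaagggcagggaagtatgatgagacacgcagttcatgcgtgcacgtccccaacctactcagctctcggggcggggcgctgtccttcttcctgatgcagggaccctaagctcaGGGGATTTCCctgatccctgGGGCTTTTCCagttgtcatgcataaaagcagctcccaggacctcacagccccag
Cxcl10 (chr14:15988816-15989065, + strand): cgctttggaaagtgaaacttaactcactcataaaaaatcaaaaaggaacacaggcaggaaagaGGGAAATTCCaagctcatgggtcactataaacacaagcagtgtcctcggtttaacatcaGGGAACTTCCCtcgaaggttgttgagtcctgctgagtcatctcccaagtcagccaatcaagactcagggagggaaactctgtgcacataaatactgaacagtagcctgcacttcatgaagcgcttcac
Cxcl11 (chr14:15973478-15973727, + strand): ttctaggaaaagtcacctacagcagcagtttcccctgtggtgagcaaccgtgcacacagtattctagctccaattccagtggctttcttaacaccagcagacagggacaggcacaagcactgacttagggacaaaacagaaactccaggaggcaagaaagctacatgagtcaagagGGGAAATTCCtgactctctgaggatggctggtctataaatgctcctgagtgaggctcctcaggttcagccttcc
Cxcl6 (chr14:17596418-17596667, - strand): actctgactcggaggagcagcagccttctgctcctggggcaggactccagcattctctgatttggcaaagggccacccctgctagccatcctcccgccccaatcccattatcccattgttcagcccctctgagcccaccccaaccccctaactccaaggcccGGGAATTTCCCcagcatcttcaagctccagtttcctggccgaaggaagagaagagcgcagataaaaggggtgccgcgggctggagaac
Cxcl9 (chr14:16006916-16007165, + strand): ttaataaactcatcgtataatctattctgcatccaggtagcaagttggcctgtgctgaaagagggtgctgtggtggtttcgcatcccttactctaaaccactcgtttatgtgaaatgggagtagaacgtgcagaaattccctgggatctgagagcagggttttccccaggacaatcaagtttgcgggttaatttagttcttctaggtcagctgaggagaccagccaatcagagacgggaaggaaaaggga
Cxcl1, Cxcl2 and Cxcl10 each held 2 separate matches and Cxcl11 and Cxcl6 1 each, while these letters did not occur in the window of Cxcl9. The nearest match began 84 bases before the start in Cxcl1, 54 in Cxcl2, 128 in Cxcl10, 74 in Cxcl11 and 88 in Cxcl6. Over all 27457 genes with a window 4.91% held the letters, over the 89 members 16.9% (15 genes), and of 11 CXC ligands with a window 5 did. Those 5 are all among the 6 genes shown. The window of Cxcl13, also on chromosome 14 but not shown, did not hold the letters. The motif was picked with the values known, and a match is a description of the sequence.

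**Figure D1:**
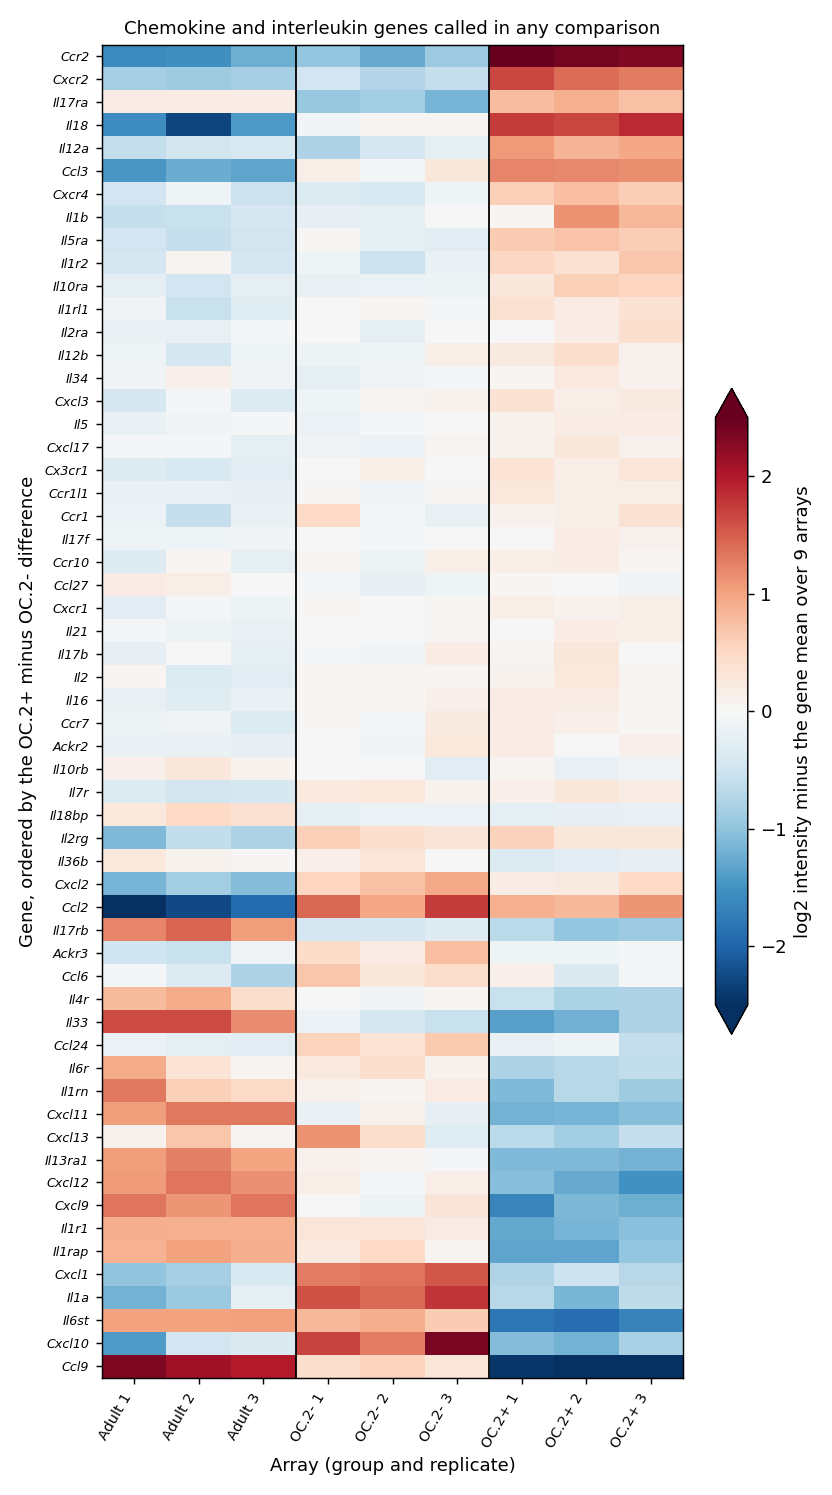
The 58 members called in at least 1 comparison (rows, ordered by the OC.2+ minus OC.2- difference) on the 9 arrays (columns, 3 per group), as log2 intensity minus the gene's mean over all arrays. Ccr2 stands at the top with high values on the 3 OC.2+ arrays alone, and Ccl9 at the bottom falls from adult through OC.2- to OC.2+ arrays.

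In all, 58 members (50.4%) were called in at least 1 of the 3 comparisons, beside 64.2% of all genes, and 57 in none, as the heat map of called members shows. Patterns over the 3 comparisons were counted for the members only, with no share over all genes. A set of 12 members was called only as higher in OC.2+ cells than in adult hepatocytes. Of these, Ccr1l1, Cxcl3 and Il12b alone kept that call under all 3 other scalings. Among genes called in all 3 comparisons the most frequent pattern held 11 genes, lower in OC.2+ than OC.2- cells and lower in both than in adult hepatocytes. They were Ccl9, Cxcl9, Cxcl11, Cxcl12, Il13ra1, Il17rb, Il1r1, Il1rap, Il1rn, Il33 and Il4r. A further 5 genes (Ccl3, Ccr2, Il18, Il1rl1 and Il5ra) were called the other way in all 3 comparisons, though for Ccr2, Il1rl1 and Il5ra the call in OC.2- cells against adult cells was lost under at least 1 other scaling. Another 6 (Ackr3, Ccl24, Ccl6, Cxcl1, Cxcl10 and Il1a) were higher in OC.2- cells than in both other groups and not called between those. Cxcl2 was higher in both fetal groups than in adult hepatocytes and lower in OC.2+ than OC.2- cells. Of the 57 uncalled members Ccl5 and Cxcr5 alone lay above the olfactory range in any group, and their largest log2 difference was 0.36 either way.

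The first comparison set OC.2+ against OC.2- fetal cells. Receptors of circulating leukocytes (Ccr2, Cxcr2, Cxcr4) and the cytokines Il18, Il12a, Il1b and Ccl3 were higher in the OC.2+ cells. Lower were 7 CXC ligands, the interleukin-6 receptor chains Il6st and Il6r, the interleukin-1 receptor chains Il1r1 and Il1rap, Il1a and Ccl9. The largest rise was 11.6-fold for Ccr2 and the largest fall 8.05-fold for Ccl9. At limma adjusted p under 0.05, 36 of the 115 members (31.3%) were called, beside 38.5% of all genes. Of these 14 (12.2%) were higher, beside 20.3% of all genes, and 22 (19.1%) were lower, beside 18.2%. At least 2-fold differences were called for 6 members upwards (5.22%, all genes 3.69%) and 13 downwards (11.3%, all genes 6.63%). Of the 14 higher members 9, and of the 22 lower members 6, lay within the olfactory range in both groups. The arrays of the groups did not overlap for 39.1% of members and 46.5% of all genes. The median log2 difference was 0.039 over the members and 0.036 over all genes. Of the 12 CXC ligands 7 fell and none rose, with a median of -0.74. Of the 18 chemokine receptors 3 rose and 1 fell (median 0.10), of the 19 CC ligands 1 rose and 3 fell (median 0.04). For the 34 interleukins and antagonists 5 rose and 4 fell, and for the 31 receptor chains 5 rose and 7 fell, with a median of 0.03 in each class.

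The second comparison set OC.2- fetal cells against adult hepatocytes. Attractants of monocytes and neutrophils (Ccl2, Cxcl1, Cxcl2), Cxcl10, Il1a and Il18 were higher in the fetal cells, and Il33, Ccl9, Il17rb, Cxcl9, Cxcl11 and Cxcl12 were lower. The largest rise was 13.0-fold for Ccl2 and the largest fall 3.61-fold for Il33. Here 34 members (29.6%) were called, beside 44.5% of all genes: 19 (16.5%) were higher, beside 23.7% of all genes, and 15 (13.0%) lower, beside 20.9%. With at least 2-fold 8 were higher (6.96%, all genes 4.06%) and 8 lower (6.96%, all genes 6.58%). Of the 19 higher members 9, and of the 15 lower members 2, lay within the olfactory range in both groups. The arrays did not overlap for 40.0% of members and 51.4% of all genes. Medians were 0.092 over the members and 0.066 over all genes. Higher members made up 55.9% of the members called, beside 53.1% over all genes called. With quantile-normalized, median-centred and loess-scaled values they made up 43.8%, 38.2% and 42.9%, beside 47.7%, 34.6% and 42.5% over all genes. The median of all genes was then -0.013, -0.063 and -0.018.

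The third comparison set OC.2+ fetal cells against the same adult arrays. Ccr2, Il18, Ccl2, Ccl3 and Cxcr2 were higher in the fetal cells, and Ccl9, Il6st, Il33, Cxcl9, Cxcl12 and Cxcl11 were lower. Ccr2 was 15.3-fold higher and Ccl9 26.3-fold lower. Of the members 49 (42.6%) were called, beside 55.4% of all genes: 33 (28.7%) were higher, beside 32.0% of all genes, and 16 (13.9%) lower, beside 23.4%. With at least 2-fold 11 were higher (9.57%, all genes 7.82%) and 13 lower (11.3%, all genes 11.1%). The arrays did not overlap for 47.8% of members and 62.2% of all genes. Medians were 0.144 and 0.108. Of the 33 higher members 27 lay within the olfactory range in both groups, and 12 lost the call under at least 1 of the 3 other scalings, which left 21. Higher members made up 67.3% of the members called, beside 57.8% over all genes called. Under the same 3 scalings they made up 51.2%, 50.0% and 48.8%, beside 50.2%, 42.5% and 42.2% over all genes. The median of all genes was then 0.004, -0.027 and -0.028.

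**Figure D2:**
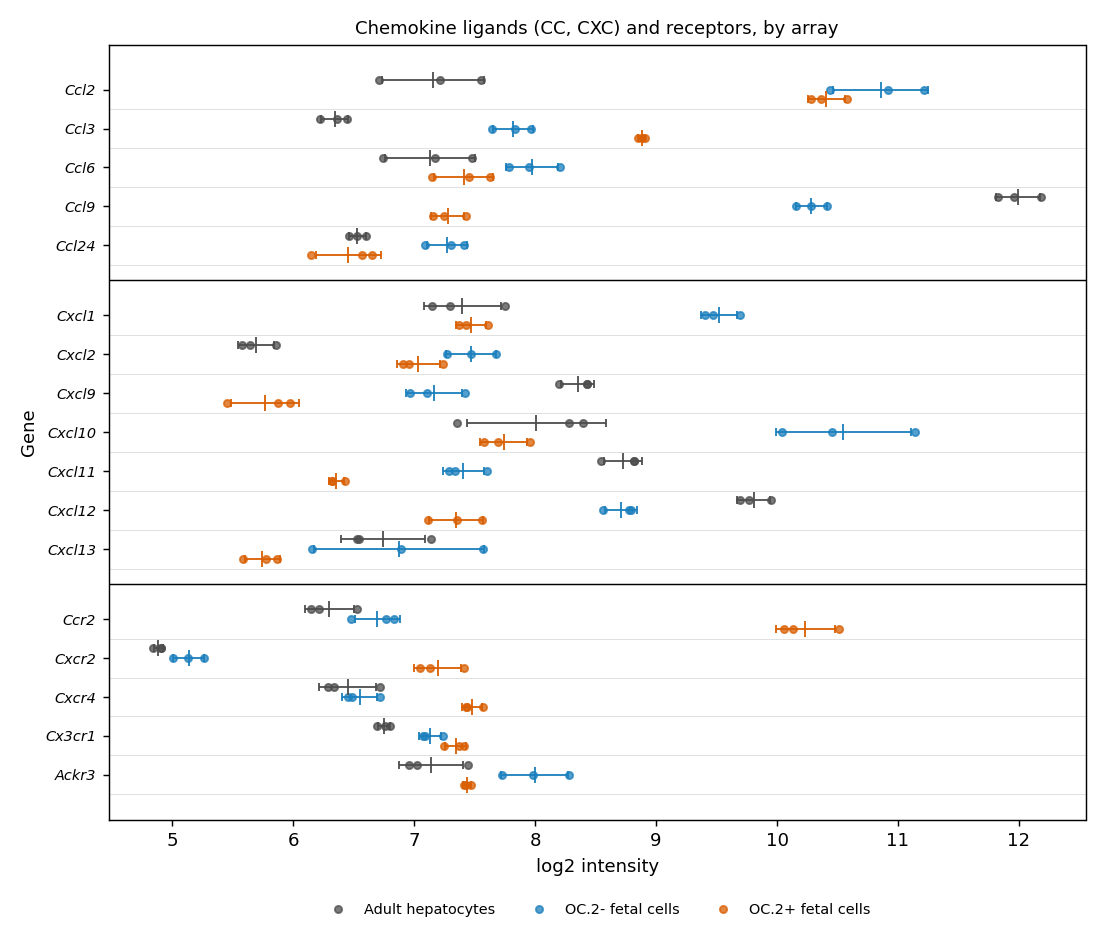
Log2 intensity (x axis) of 5 CC ligands, 7 CXC ligands and 5 chemokine receptors (y axis), with a point for each array, 3 per group, and a bar for the mean ± SD. For Ccl2 the 6 fetal arrays lie between 10.28 and 11.22 and the adult arrays between 6.71 and 7.55, while for Ccr2 the OC.2+ arrays alone lie above 10.

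Among the CC ligands, Ccl2, which draws monocytes through Ccr2, measured 6.71, 7.21 and 7.55 on the adult arrays, 10.92, 10.44 and 11.22 on the OC.2- arrays and 10.37, 10.28 and 10.58 on the OC.2+ arrays. All fetal arrays lay far above the adult ones, and the fetal groups overlapped. Ccl2 was 13.0-fold (95% interval 9.49 to 17.8) higher in OC.2- cells (adjusted p = 1.27e-08) and 9.52-fold (95% interval 6.96 to 13.0) higher in OC.2+ cells (adjusted p = 1.78e-08) than in adult hepatocytes. Between the fetal groups the log2 difference was -0.45 ± 0.21 (adjusted p = 0.118), and -0.66 without OC.2- replicate 2 (adjusted p = 0.0223). The neighbours of Ccl2 on chromosome 10, Ccl7, Ccl11 and Ccl12, were called in no comparison.

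Ccl3, a macrophage inflammatory protein that binds Ccr1, measured 6.22, 6.44 and 6.36 on the adult arrays, 7.84, 7.64 and 7.97 on the OC.2- arrays and 8.91, 8.89 and 8.85 on the OC.2+ arrays. The 3 groups did not overlap, and the OC.2+ arrays were the highest. Ccl3 was 2.09-fold (95% interval 1.82 to 2.41) higher in OC.2+ than OC.2- cells (adjusted p = 9.22e-07) and 2.78-fold (95% interval 2.41 to 3.20) higher in OC.2- cells than in adult hepatocytes (adjusted p = 4.24e-08). Its close relative Ccl4 was not called between the fetal groups (-0.18 ± 0.11, adjusted p = 0.269).

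Ccl9, a chemokine known in the mouse as a ligand of Ccr1, measured 12.18, 11.96 and 11.83 on the adult arrays, 10.28, 10.42 and 10.16 on the OC.2- arrays and 7.43, 7.15 and 7.25 on the OC.2+ arrays. The groups were again fully apart, but in the opposite order, with the adult arrays the highest. Ccl9 was 3.26-fold (95% interval 2.77 to 3.85) lower in OC.2- cells than in adult hepatocytes (adjusted p = 4.36e-08) and 8.05-fold (95% interval 6.83 to 9.48) lower in OC.2+ than OC.2- cells (adjusted p = 3.01e-10). Ccl6, its nearest relative, measured 7.48, 7.18 and 6.74 on the adult arrays, 8.21, 7.78 and 7.95 on the OC.2- arrays and 7.63, 7.15 and 7.45 on the OC.2+ arrays. It was highest in the OC.2- cells, 1.80-fold above adult hepatocytes (adjusted p = 0.00156) and 1.48-fold above OC.2+ cells (adjusted p = 0.0205). The second of these calls was lost without OC.2- replicate 1 (adjusted p = 0.0934), OC.2+ replicate 2 (0.106) or OC.2+ replicate 3 (0.0519). Probe sets of such close relatives can share signal.

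Ccl24, an eotaxin that draws eosinophils through Ccr3, measured 6.6, 6.53 and 6.47 on the adult arrays, 7.31, 7.09 and 7.42 on the OC.2- arrays and 6.57, 6.66 and 6.15 on the OC.2+ arrays. Only the OC.2- arrays stood out, 1.67-fold above adult hepatocytes (adjusted p = 0.000348) and 1.76-fold above OC.2+ cells (adjusted p = 0.000158). Ccl27, a skin chemokine, was 1.18-fold lower in OC.2- cells than in adult hepatocytes (adjusted p = 0.0319), a call lost without adult replicate 1 (adjusted p = 0.109) or 2 (0.0866) or OC.2- replicate 2 (0.108) or 3 (0.0504). Ccl5, an attractant of T cells, lay above the olfactory range in all groups and was not called in any comparison (0.07 ± 0.11, 0.13 ± 0.11 and 0.20 ± 0.11 in the order of the comparisons).

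Among the CXC ligands, Cxcl1 measured 7.15, 7.30 and 7.75 on the adult arrays, 9.41, 9.47 and 9.69 on the OC.2- arrays and 7.37, 7.61 and 7.43 on the OC.2+ arrays. The OC.2- arrays were high, and those of adult hepatocytes and OC.2+ cells overlapped. Cxcl1 was 4.36-fold (95% interval 3.53 to 5.38) higher in OC.2- cells than in adult hepatocytes (adjusted p = 5.78e-08) and 4.14-fold (95% interval 3.35 to 5.11) lower in OC.2+ than OC.2- cells (adjusted p = 7.91e-08). The difference between OC.2+ cells and adult hepatocytes was 0.07 ± 0.14 (adjusted p = 0.671). Cxcl2, its neighbour, measured 5.58, 5.86 and 5.64 on the adult arrays, 7.27, 7.47 and 7.68 on the OC.2- arrays and 6.91, 6.96 and 7.24 on the OC.2+ arrays. Both fetal groups lay above the adult one for this gene, by 3.43-fold in OC.2- (adjusted p = 8.35e-08) and 2.53-fold in OC.2+ cells (adjusted p = 6.1e-07). It was 1.35-fold lower in OC.2+ than OC.2- cells (adjusted p = 0.0113). That call was lost without OC.2- replicate 3 (adjusted p = 0.053), OC.2+ replicate 1 (0.0567) or OC.2+ replicate 2 (0.0504). Cxcl3, also of this neutrophil-attracting group, was dim and 1.43-fold higher in OC.2+ cells than in adult hepatocytes (adjusted p = 0.000888).

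Cxcl10, the interferon-inducible ligand of Cxcr3, measured 7.35, 8.28 and 8.40 on the adult arrays, 10.46, 10.04 and 11.14 on the OC.2- arrays and 7.69, 7.58 and 7.96 on the OC.2+ arrays. Its replicates were widely spread in every group but OC.2+, and still every OC.2- array lay above every other array. Cxcl10 was 5.80-fold (95% interval 3.80 to 8.85) higher in OC.2- cells than in adult hepatocytes (adjusted p = 7.79e-06) and 6.99-fold (95% interval 4.58 to 10.7) lower in OC.2+ than OC.2- cells (adjusted p = 3.04e-06). Against adult hepatocytes the OC.2+ cells differed by -0.27 ± 0.28 (adjusted p = 0.436).

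Cxcl9, which the same receptor binds, measured 8.43, 8.2 and 8.43 on the adult arrays, 7.11, 6.97 and 7.42 on the OC.2- arrays and 5.45, 5.97 and 5.88 on the OC.2+ arrays. Cxcl11, the last of the trio, measured 8.54, 8.82 and 8.82 on the adult arrays, 7.34, 7.60 and 7.29 on the OC.2- arrays and 6.32, 6.33 and 6.43 on the OC.2+ arrays. Both fell from adult to OC.2- to OC.2+ cells with no overlap between groups. In OC.2- cells Cxcl9 was 2.28-fold (95% interval 1.83 to 2.83) and Cxcl11 2.49-fold (95% interval 2.13 to 2.91) lower than in adult hepatocytes (adjusted p = 1.78e-05 and 3e-07). In OC.2+ cells they were a further 2.63-fold and 2.07-fold lower (adjusted p = 4.03e-06 and 2.53e-06). Their receptor Cxcr3 was called in no comparison and lay within the olfactory range in every group.

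Cxcl12, which holds blood progenitors in marrow and fetal liver, measured 9.69, 9.95 and 9.77 on the adult arrays, 8.78, 8.56 and 8.79 on the OC.2- arrays and 7.56, 7.35 and 7.11 on the OC.2+ arrays. The 3 groups did not overlap and the adult arrays were the highest. It was 2.14-fold (95% interval 1.79 to 2.55) lower in OC.2- cells than in adult hepatocytes (adjusted p = 5.65e-06) and 2.58-fold (95% interval 2.16 to 3.08) lower in OC.2+ than OC.2- cells (adjusted p = 6.9e-07). Cxcl13, the B-cell attractant, measured 6.55, 7.14 and 6.53 on the adult arrays, 7.57, 6.89 and 6.16 on the OC.2- arrays and 5.78, 5.58 and 5.87 on the OC.2+ arrays. Its OC.2+ arrays lay below all others, 2.19-fold under the OC.2- cells (adjusted p = 0.00453), whose own arrays were widely spread. Cx3cl1, the membrane-bound fractalkine, was called in no comparison.

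Among the receptors, Ccr2, which guides monocytes and their progenitors, measured 6.15, 6.22 and 6.53 on the adult arrays, 6.77, 6.48 and 6.83 on the OC.2- arrays and 10.52, 10.13 and 10.06 on the OC.2+ arrays. The OC.2+ arrays stood apart, and the other groups overlapped. Ccr2 was 11.6-fold (95% interval 9.43 to 14.3) higher in OC.2+ than OC.2- cells (adjusted p = 6.17e-10) and 15.3-fold (95% interval 12.4 to 18.9) higher than in adult hepatocytes (adjusted p = 4.48e-11). In OC.2- cells it was 1.32-fold higher than in adult hepatocytes (adjusted p = 0.0339), a call that ended with quantile normalization (adjusted p = 0.123) and centring on medians (0.137). It also ended without adult replicate 1 (0.126) or 2 (0.0955) and without OC.2- replicate 1 (0.0987) or 3 (0.122).

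Cxcr2, the neutrophil receptor of Cxcl1 and Cxcl2, measured 4.91, 4.84 and 4.91 on the adult arrays, 5.26, 5.01 and 5.13 on the OC.2- arrays and 7.42, 7.13 and 7.04 on the OC.2+ arrays. Only OC.2+ arrays were raised, 4.17-fold (95% interval 3.58 to 4.87) over OC.2- cells (adjusted p = 4.38e-09) and 4.96-fold (95% interval 4.25 to 5.79) over adult hepatocytes (adjusted p = 4.05e-10), yet even there the mean lay within the olfactory range. Between OC.2- cells and adult hepatocytes the difference was 0.25 ± 0.10 (adjusted p = 0.0646), which passed without OC.2- replicate 2 (0.0412) or OC.2+ replicate 1 (0.0333). Its ligands Cxcl1 and Cxcl2 were lower in OC.2+ than OC.2- cells, as given above. Granulocyte markers moved the same way as Cxcr2: 9 of 10 rose in OC.2+ over OC.2- cells, among them Mpo, a neutrophil granule enzyme, by 44.6-fold (adjusted p = 2.22e-12). Of 10 macrophage markers none rose and 3 fell in that comparison. The part of these lists in the Cxcr2 and Ccr2 results was not tested.

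Cxcr4, the receptor of Cxcl12 on blood progenitors, measured 6.34, 6.72 and 6.29 on the adult arrays, 6.48, 6.45 and 6.72 on the OC.2- arrays and 7.43, 7.57 and 7.44 on the OC.2+ arrays. It was 1.91-fold (95% interval 1.60 to 2.27) higher in OC.2+ than OC.2- cells (adjusted p = 2.35e-05), while Cxcl12 itself was lower there. Between OC.2- cells and adult hepatocytes the difference was 0.10 ± 0.12 (adjusted p = 0.514), and -0.02 and -0.03 after quantile normalization and median centring. Ackr3, the atypical receptor that takes up Cxcl12, measured 7.02, 6.96 and 7.44 on the adult arrays, 7.98, 7.73 and 8.28 on the OC.2- arrays and 7.41, 7.42 and 7.47 on the OC.2+ arrays. Ackr3 went the other way from Cxcr4, 1.47-fold lower in OC.2+ than OC.2- cells (adjusted p = 0.00658) and 1.81-fold higher in OC.2- cells than in adult hepatocytes (adjusted p = 0.000284). Between OC.2+ cells and adult hepatocytes the difference was 0.30 ± 0.14 (adjusted p = 0.0975), and 0.45 without adult replicate 3 (adjusted p = 0.0143). All 6 endothelial markers moved as Ackr3 did in both of its calls, lower in the OC.2+ and higher in the OC.2- cells. The 4 measured hepatoblast markers all moved so too. Of 9 stellate and mesenchymal markers 8 were lower in OC.2+ than OC.2- cells, and 7 were higher and 1 lower in OC.2- cells than in adult hepatocytes. The part of any of these lists in the Ackr3 result was not tested.

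Cx3cr1, the fractalkine receptor of monocytes and macrophages, measured 6.76, 6.69 and 6.80 on the adult arrays, 7.07, 7.24 and 7.09 on the OC.2- arrays and 7.41, 7.25 and 7.38 on the OC.2+ arrays. It was higher in both fetal groups than in adult hepatocytes, by 1.30-fold (adjusted p = 0.00167) and 1.51-fold (adjusted p = 3.02e-05). Between the fetal groups the difference of 0.21 ± 0.08 was not called (adjusted p = 0.0573), although it passed after quantile normalization (adjusted p = 0.0409) and without OC.2- replicate 2 (0.0334) or OC.2+ replicate 2 (0.0401). Against adult hepatocytes 7 of 10 macrophage markers rose in OC.2- cells and 6 rose in OC.2+ cells, with 1 lower in each. From OC.2- to OC.2+ cells none of the 10 rose and 3 fell. Of these 10 markers 2, 6 and 4 lay above the olfactory range in adult, OC.2- and OC.2+ cells, and their part in the Cx3cr1 result was not tested.

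**Figure D3:**
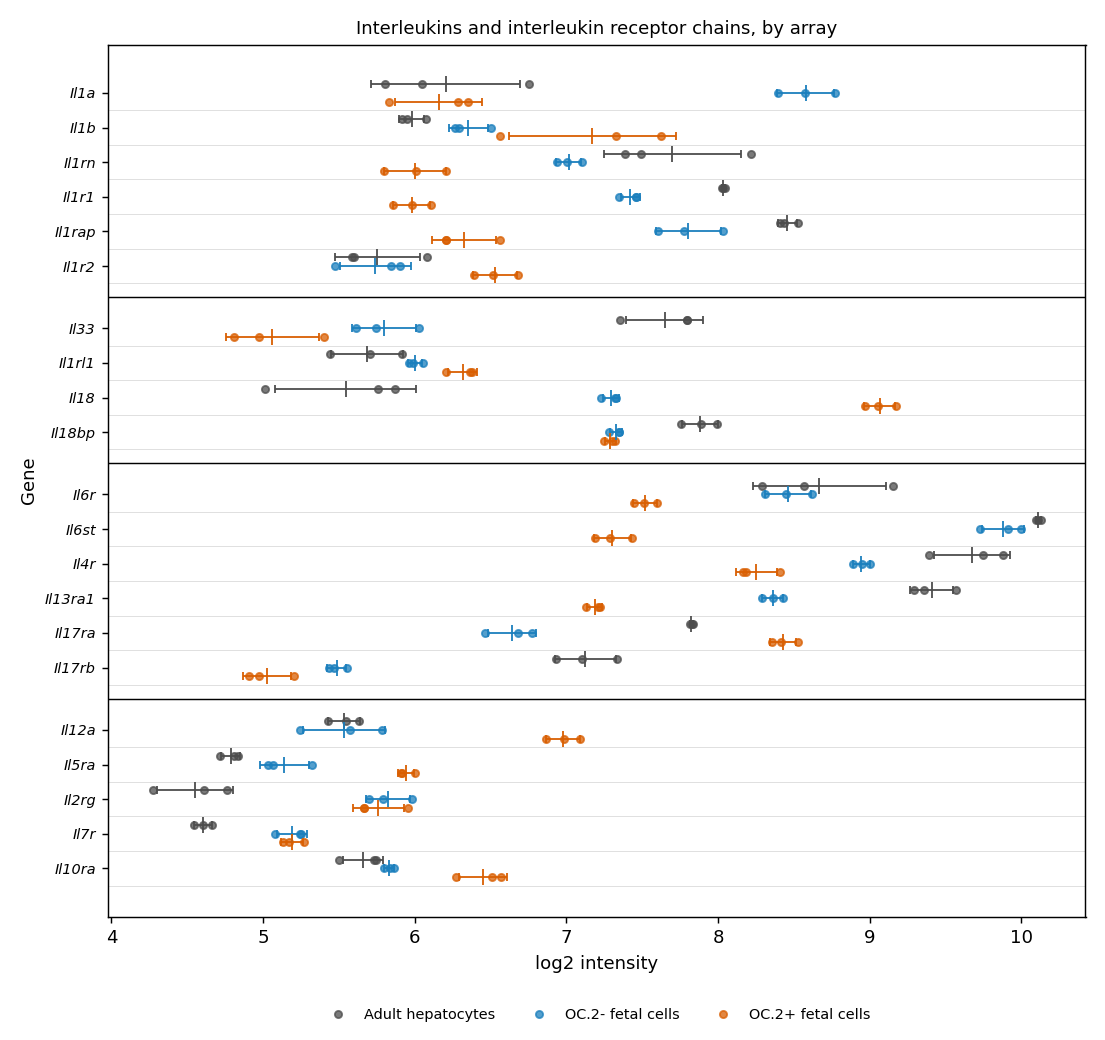
Log2 intensity (x axis) of 21 interleukins, antagonists and interleukin receptor chains (y axis), with a point for each array, 3 per group, and a bar for the mean ± SD. Il1a is high on the OC.2- arrays alone, at 8.39 to 8.77, and Il6st is low on the OC.2+ arrays alone, at 7.19 to 7.43.

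In the interleukin-1 family the agonists parted between the fetal groups. Il1a measured 5.81, 6.05 and 6.75 on the adult arrays, 8.57, 8.39 and 8.77 on the OC.2- arrays and 6.29, 5.83 and 6.35 on the OC.2+ arrays. It was 5.19-fold (95% interval 3.78 to 7.11) higher in OC.2- cells than in adult hepatocytes (adjusted p = 9.09e-07) and 5.36-fold (95% interval 3.91 to 7.34) lower in OC.2+ than OC.2- cells (adjusted p = 7.52e-07). Il1b, which is made as a precursor and cleaved by caspase-1, measured 5.92, 5.95 and 6.07 on the adult arrays, 6.29, 6.27 and 6.50 on the OC.2- arrays and 6.56, 7.63 and 7.33 on the OC.2+ arrays. The OC.2+ arrays were the highest, 1.76-fold (95% interval 1.30 to 2.38) above OC.2- cells (adjusted p = 0.00505), but their own spread was wide and their mean stayed within the olfactory range. In OC.2- cells against adult hepatocytes Il1b differed by 0.37 ± 0.20 (adjusted p = 0.15, 0.0119 without OC.2+ replicate 1). Il1rn, the antagonist that blocks both, measured 8.21, 7.49 and 7.38 on the adult arrays, 7.01, 6.94 and 7.10 on the OC.2- arrays and 5.79, 6.20 and 6.01 on the OC.2+ arrays. It was 1.60-fold lower in OC.2- cells than in adult hepatocytes (adjusted p = 0.00742), a log2 difference that went from -0.68 to -0.42 without adult replicate 1. In OC.2+ cells it was 2.02-fold lower than in OC.2- cells (adjusted p = 0.000463).

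Il1r1, the signalling receptor, measured 8.04, 8.03 and 8.03 on the adult arrays, 7.46, 7.46 and 7.35 on the OC.2- arrays and 5.86, 5.98 and 6.10 on the OC.2+ arrays. Il1rap, the chain it pairs with, measured 8.41, 8.53 and 8.44 on the adult arrays, 7.78, 8.03 and 7.61 on the OC.2- arrays and 6.21, 6.20 and 6.57 on the OC.2+ arrays. For both genes the adult arrays were highest, the OC.2+ arrays lowest, and no groups overlapped. In OC.2+ against OC.2- cells Il1r1 was 2.71-fold (95% interval 2.40 to 3.07) and Il1rap 2.79-fold (95% interval 2.32 to 3.34) lower (adjusted p = 1.28e-08 and 4.44e-07). The decoy receptor Il1r2, found on neutrophils and monocytes, measured 5.59, 6.08 and 5.60 on the adult arrays, 5.90, 5.47 and 5.84 on the OC.2- arrays and 6.52, 6.39 and 6.68 on the OC.2+ arrays. Il1r2 was the opposite case, 1.73-fold higher in OC.2+ than OC.2- cells (adjusted p = 0.00068), with values within the olfactory range throughout.

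Il33, an alarmin held in the nucleus, measured 7.79, 7.80 and 7.36 on the adult arrays, 6.03, 5.75 and 5.61 on the OC.2- arrays and 4.81, 4.98 and 5.40 on the OC.2+ arrays. It was 3.61-fold (95% interval 2.82 to 4.62) lower in OC.2- cells than in adult hepatocytes (adjusted p = 9.22e-07) and 1.66-fold lower in OC.2+ than OC.2- cells (adjusted p = 0.00262). In both fetal groups the mean of Il33 lay within the olfactory range. Its receptor Il1rl1 was dim and 1.55-fold higher in OC.2+ cells than in adult hepatocytes (adjusted p = 0.000268). Il18, an inducer of interferon gamma that caspase-1 also cleaves, measured 5.76, 5.01 and 5.87 on the adult arrays, 7.23, 7.33 and 7.32 on the OC.2- arrays and 9.06, 8.97 and 9.17 on the OC.2+ arrays. The groups did not overlap, and Il18 was 3.41-fold (95% interval 2.63 to 4.42) higher in OC.2+ than OC.2- cells (adjusted p = 2.31e-06) and 3.36-fold (95% interval 2.59 to 4.35) higher in OC.2- cells than in adult hepatocytes (adjusted p = 2.59e-06). Il18bp, the secreted protein that traps it, was 1.47-fold and 1.5-fold lower in OC.2- and OC.2+ cells than in adult hepatocytes (adjusted p = 7.87e-05 and 2.85e-05). Il18r1, its receptor, was called in no comparison.

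Of the interleukin-6 receptor, Il6st, the shared signalling chain gp130, measured 10.11, 10.10 and 10.13 on the adult arrays, 9.91, 9.999 and 9.72 on the OC.2- arrays and 7.29, 7.19 and 7.43 on the OC.2+ arrays. OC.2+ arrays were low, 5.96-fold (95% interval 5.20 to 6.84) under the OC.2- cells (adjusted p = 2.58e-10) and 7.0-fold (95% interval 6.11 to 8.03) under adult hepatocytes (adjusted p = 1.97e-11). In OC.2- cells the difference from adult hepatocytes of -0.23 ± 0.09 missed the threshold (adjusted p = 0.0546), and passed after median centring (-0.36, adjusted p = 0.00899) and cyclic loess (-0.28, adjusted p = 0.011). Without OC.2- replicate 2 it also passed, at -0.29 (adjusted p = 0.0313), and without OC.2+ replicate 3 at adjusted p = 0.0499. Il6r, the ligand-binding chain, measured 9.15, 8.56 and 8.29 on the adult arrays, 8.45, 8.62 and 8.31 on the OC.2- arrays and 7.44, 7.51 and 7.60 on the OC.2+ arrays. It was 1.92-fold lower in OC.2+ than OC.2- cells (adjusted p = 0.000549), and between OC.2- cells and adult hepatocytes the arrays overlapped (-0.21 ± 0.17, adjusted p = 0.348). Il6 itself was called in no comparison and lay within the olfactory range in all groups.

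The interleukin-4 and interleukin-13 receptor is a pair of chains. Il4r measured 9.75, 9.88 and 9.39 on the adult arrays, 8.95, 8.89 and 9.0 on the OC.2- arrays and 8.41, 8.16 and 8.18 on the OC.2+ arrays. Il13ra1 measured 9.36, 9.57 and 9.29 on the adult arrays, 8.43, 8.36 and 8.29 on the OC.2- arrays and 7.22, 7.21 and 7.13 on the OC.2+ arrays. Both fell in the order adult, OC.2-, OC.2+ with no overlap. In OC.2- cells Il4r was 1.66-fold and Il13ra1 2.07-fold lower than in adult hepatocytes (adjusted p = 0.000212 and 5.01e-07). From OC.2- to OC.2+ cells they were a further 1.62-fold and 2.26-fold lower (adjusted p = 0.000323 and 1.64e-07). Neither ligand, Il4 or Il13, was called in any comparison.

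Il17ra, the chain shared by interleukin-17 receptors, measured 7.83, 7.82 and 7.83 on the adult arrays, 6.68, 6.78 and 6.47 on the OC.2- arrays and 8.41, 8.53 and 8.36 on the OC.2+ arrays. The OC.2- arrays were the lowest and the OC.2+ arrays the highest, with the adult arrays between them and no overlap. Il17ra was 2.27-fold (95% interval 1.99 to 2.60) lower in OC.2- cells (adjusted p = 2.1e-07) and 1.52-fold (95% interval 1.33 to 1.74) higher in OC.2+ cells (adjusted p = 6.49e-05) than in adult hepatocytes. Il17rb, which pairs with it to bind interleukin-25, measured 7.11, 7.34 and 6.93 on the adult arrays, 5.43, 5.47 and 5.55 on the OC.2- arrays and 5.21, 4.91 and 4.97 on the OC.2+ arrays. It was 3.11-fold lower in OC.2- cells than in adult hepatocytes (adjusted p = 7.1e-08) and 1.37-fold lower in OC.2+ than OC.2- cells (adjusted p = 0.00435). These chains were thus called in opposite directions between the fetal groups, but both fetal means of Il17rb lay within the olfactory range.

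Il12a, the p35 subunit of interleukin-12, measured 5.42, 5.55 and 5.63 on the adult arrays, 5.25, 5.57 and 5.79 on the OC.2- arrays and 7.09, 6.86 and 6.99 on the OC.2+ arrays. It was 2.72-fold (95% interval 2.26 to 3.27) higher in OC.2+ than OC.2- cells (adjusted p = 6.59e-07), where the means still lay within the olfactory range. Il12b, the p40 subunit, was 1.38-fold higher in OC.2+ cells than in adult hepatocytes (adjusted p = 0.00463). Il5ra, the interleukin-5 receptor of eosinophils, measured 4.81, 4.72 and 4.83 on the adult arrays, 5.32, 5.07 and 5.03 on the OC.2- arrays and 5.92, 6.00 and 5.91 on the OC.2+ arrays. Dim as it was, its groups did not overlap, and it was 1.74-fold higher in OC.2+ than OC.2- cells (adjusted p = 8e-06). Of the 8 eosinophil, basophil and mast cell markers 4 rose and 2 fell in that comparison. Prg2, the eosinophil major basic protein, was 54.2-fold higher (adjusted p = 6.17e-13) and Hdc 5.69-fold lower (adjusted p = 2.92e-09). The 8 markers summed to 7594.9 to 8153.1 on the OC.2- arrays and 6715.6 to 7787.4 on the OC.2+ arrays. Their part in the Il5ra result was not tested.

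Il2rg, the common gamma chain of lymphocyte cytokine receptors, measured 4.27, 4.76 and 4.61 on the adult arrays, 5.98, 5.79 and 5.70 on the OC.2- arrays and 5.96, 5.66 and 5.66 on the OC.2+ arrays. Il7r, which joins it to bind interleukin-7, measured 4.66, 4.54 and 4.60 on the adult arrays, 5.24, 5.25 and 5.08 on the OC.2- arrays and 5.13, 5.27 and 5.17 on the OC.2+ arrays. The means of both genes lay within the olfactory range in every group. Both were higher in each fetal group than in adult hepatocytes, by 2.42-fold and 2.32-fold for Il2rg (adjusted p = 3.42e-06 and 3.01e-06). For Il7r the figures were 1.5-fold and 1.5-fold (adjusted p = 5.02e-05 and 3.12e-05). Neither was called between the fetal groups, where the differences were -0.06 ± 0.13 (adjusted p = 0.78) and 0.00 ± 0.08 (adjusted p = 0.998). Il10ra, which binds interleukin-10 on blood cells, was 1.53-fold higher in OC.2+ than OC.2- cells (adjusted p = 0.000165).

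**Figure D4:**
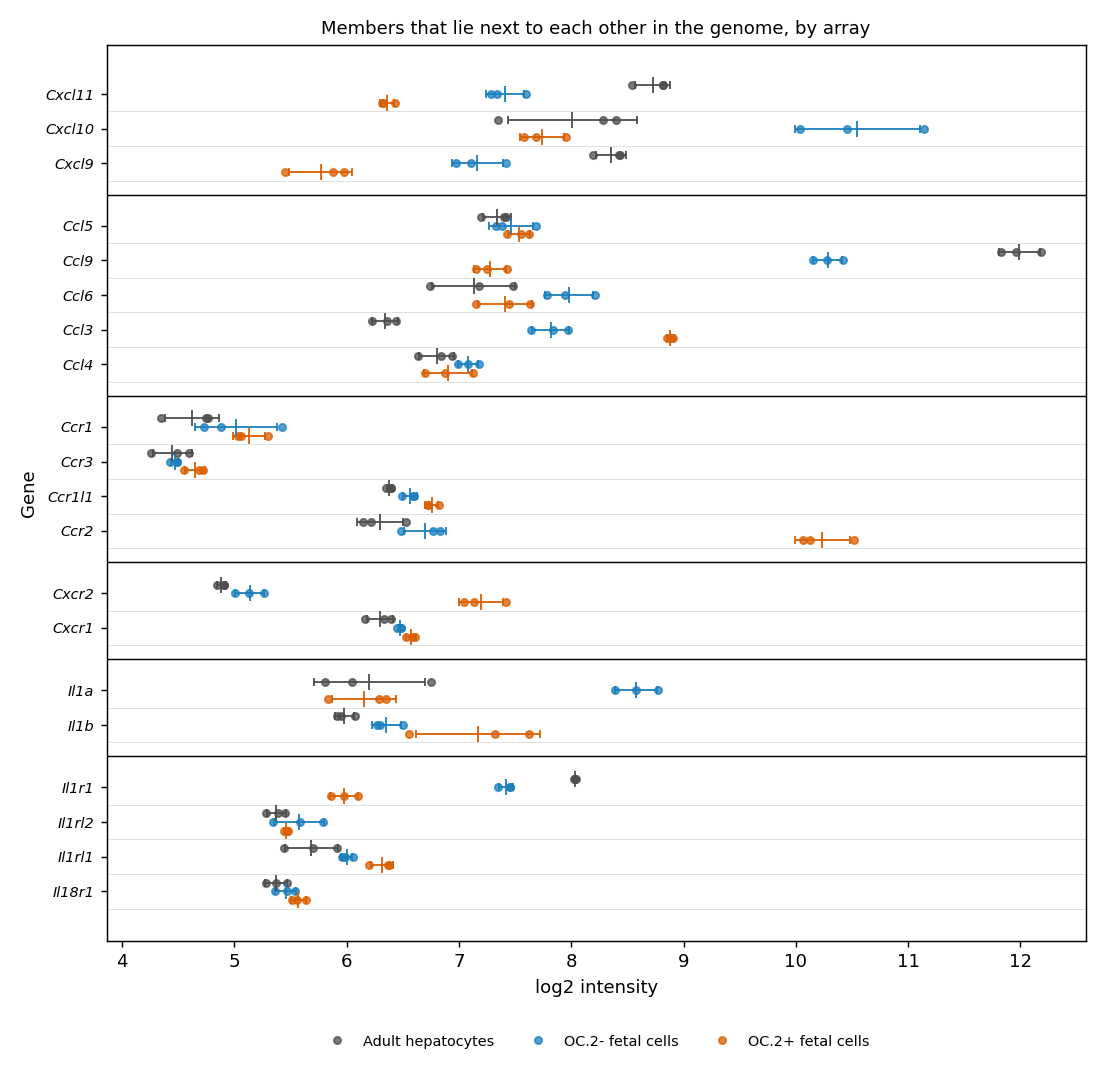
Log2 intensity (x axis) of members that are neighbours in the genome, in 6 blocks (y axis), with a point for each array, 3 per group, and a bar for the mean ± SD. In the block of Ccr1, Ccr3, Ccr1l1 and Ccr2 only Ccr2 has OC.2+ arrays far from the rest, at 10.06 to 10.52, and Cxcl10 is high on OC.2- arrays while Cxcl9 and Cxcl11 beside it are high on adult arrays.

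Position in the genome was not part of the rule. In a current table of rat genes (GRCr8, used for order only) 18 members lie on chromosome 10, 12 on chromosome 8 and 11 on chromosome 9. Next to each other on chromosome 14 lie Cxcl11, Cxcl10 and Cxcl9, of which the middle gene was higher and the outer ones lower in OC.2- cells than in adult hepatocytes. All 3 fell from OC.2- to OC.2+ cells. On chromosome 10 Ccl5, Ccl9, Ccl6, Ccl3 and Ccl4 form a run: from OC.2- to OC.2+ cells Ccl9 and Ccl6 fell, Ccl3 rose, and Ccl5 and Ccl4 were not called. On chromosome 8 Ccr1, Ccr3, Ccr1l1 and Ccr2 adjoin, and the log2 differences between the fetal groups were 0.12 ± 0.17, 0.18 ± 0.09, 0.19 ± 0.07 and 3.54 ± 0.14, of which the last was called.

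On chromosome 9 Cxcr2 lies beside Cxcr1, which also binds interleukin-8-type ligands and differed by 0.10 ± 0.08 between the fetal groups (adjusted p = 0.383). Il1r1, Il1rl2, Il1rl1 and Il18r1 follow each other on the same chromosome. There Il1r1 fell (-1.44), Il1rl1 rose (0.31, adjusted p = 0.0374), and Il1rl2 and Il18r1 were not called. The Il1rl1 call ended under each of the 3 scalings (0.0517 to 0.0965), without any single OC.2- array (0.0567 to 0.0932) and without OC.2+ replicate 1 (0.121) or 3 (0.115). Il1a and Il1b are neighbours on chromosome 3, and from OC.2- to OC.2+ cells Il1a fell and Il1b rose. The run of Il36g, Il36a, Il36b, Il36rn, Il1f10 and Il1rn on the same chromosome held Il1rn and Il36b as the genes called, both lower in OC.2+ than OC.2- cells. Whether neighbours differ from each other was not tested.

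The signalling genes downstream followed lists apart from the members. Of 21 measured genes of chemokine receptor signalling 15 rose and none fell in OC.2+ against OC.2- cells (median 0.62). Over all genes 20.3% rose and 18.2% fell there (median 0.036). Against adult hepatocytes 14 rose and 4 fell in OC.2- cells (median 0.42), and 18 rose and 2 fell in OC.2+ cells (median 0.99). Over all genes 23.7% rose and 20.9% fell in OC.2- cells (median 0.066). In OC.2+ cells 32.0% rose and 23.4% fell (median 0.108). Rac2, the leukocyte GTPase that drives migration, was 7.28-fold and Rgs18, a brake on G protein signalling in platelets, 4.60-fold higher in OC.2+ than OC.2- cells (adjusted p = 1.89e-10 and 7.73e-10). Of 22 JAK-STAT and SOCS genes 6 rose and 5 fell in OC.2+ against OC.2- cells (median 0.14), beside the same 20.3% and 18.2% of all genes. In OC.2- cells against adult hepatocytes 3 of the 22 rose and 6 fell (median -0.04), beside 23.7% and 20.9% of all genes. Socs3, the feedback inhibitor of interleukin-6 signalling, was 4.25-fold higher in OC.2- cells than in adult hepatocytes (adjusted p = 1.58e-08) and 3.23-fold lower in OC.2+ than OC.2- cells (adjusted p = 1.17e-07). Socs2 went the other way, 5.62-fold lower (adjusted p = 2.68e-06) and 2.05-fold higher (adjusted p = 0.00405) in the same comparisons. Of the kinases and factors below Il6st, Jak1 and Stat3 were 2.17-fold and 1.61-fold lower in OC.2+ than OC.2- cells (adjusted p = 8.18e-08 and 4.68e-05), and Jak2 was 2.37-fold higher (adjusted p = 2.39e-07).

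Of 24 measured genes of interleukin-1 signalling and NF-kB 8 rose and 4 fell in OC.2+ against OC.2- cells (median 0.09). Over all genes 20.3% rose and 18.2% fell there (median 0.036). In OC.2- cells against adult hepatocytes 5 of the 24 rose and 11 fell (median -0.17), beside 23.7% and 20.9% of all genes (median 0.066). The largest falls there were 3.50-fold for Casp4 and 2.32-fold for Sigirr (adjusted p = 4.11e-08 and 4.43e-07). Nfkbia and Nfkbiz, which NF-kB itself induces, were 2.92-fold and 2.38-fold higher in OC.2- cells than in adult hepatocytes (adjusted p = 2.22e-07 and 1.68e-08) and 2.42-fold and 1.53-fold lower in OC.2+ than OC.2- cells (adjusted p = 1.38e-06 and 1.38e-05). Rela and Nfkb1, subunits of the factor, were called in no comparison. Casp1, which cleaves the precursors of Il1b and Il18, was 2.34-fold higher in OC.2+ than OC.2- cells (adjusted p = 6.5e-07).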

How the data were processed

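The deposited table holds intensities on a linear scale, 1 column per sample and 28826 rows. Per the submitters' processing notes the authors used Partek 6.6 and RMA, in which roles is not stated there. RMA as a rule aligns probe distributions between arrays and shrinks differences of dim genes, yet array medians of the deposited values still differed by group. No genome build was found in these notes or the labels. The platform annotation gave 1 symbol to 15209 rows, several to 306 and none to 13311. The row with the highest mean stood for a gene, and no member had several rows. Log2 was taken, and limma 3.58.1 (R 4.3.3) was fitted over all 9 arrays with group means (6 residual degrees of freedom), 2-sided, with no filter on dim genes, and tested on simulated data. All 115 members matched the RefSeq table by gene ID, with 0 changed symbols. Sequences are RefSeq's (GRCr8). The titles call the arrays of a group biological replicates, without naming animals.

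The members and lists were chosen with earlier results of these data known. Per comparison the genes to be named were the 8 highest and 8 lowest called members without overlap, up to 2 called each way per class, and 15 genes fixed by name (Cxcl12, Cxcr4, Ackr3, Cxcr2, Ccr2, Cx3cr1, Ccl2, Il1b, Il6st, Il6r, Il1r1, Il18, Il33, Il7r and Il2rg). Other members, named to fill a class, a receptor pair or a run of neighbours, were taken with values known, and so were the examples from the signalling and marker lists. Alternatives were 3 other scalings, a filter on dim genes, the mean of rows, a trended and robust variance, fits of only the groups compared, a replicate block, a 2-fold minimum and leaving out each array.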

Additional observations from a re-analysis of the deposited data

Results flagged for a closer look

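Il17ra stood out because the fetal groups differed from adult hepatocytes in opposite directions, with a log2 difference of -1.18 in OC.2- and 0.61 in OC.2+ cells. The difference between those effects, which is the OC.2+ against OC.2- comparison, was 1.79 and was called (adjusted p = 4.5e-09). It was the only member of the 115 called in opposite directions against adult hepatocytes.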

How the results depend on the processing

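Comparisons stand here in the order of the report. Under every alternative that tested them, the 2-fold minimum aside, 11 of 14, 13 of 19 and 21 of 33 higher members and 20 of 22, 13 of 15 and 16 of 16 lower members kept the call. The filter on dim genes left 20 members, of which 4 were higher and 12 lower, 8 higher and 10 lower, and 5 higher and 10 lower in these comparisons (fewer genes tested). A 2-fold minimum left 6 higher and 13 lower, 8 and 8, and 11 and 13. For OC.2+ cells and adult hepatocytes 21 members were higher under each of quantile normalization, median centring and cyclic loess. Without 1 array in turn the counts were 11 to 18 higher and 20 to 23 lower, 17 to 22 and 13 to 16, and 27 to 34 and 16 to 17. Deviations from the group means of arrays with the same number correlated at r from -0.226 to 0.106. With 3 arrays a group this cannot tell whether such arrays share a source, and the titles name no animals. The replicate block gave 15 higher and 23 lower, 21 and 15, and 32 and 17. With it Ccl2 passed between the fetal groups (-0.45, adjusted p = 0.0401), as did Cxcr2 in OC.2- (0.25, adjusted p = 0.047) and Ackr3 in OC.2+ cells (0.30, adjusted p = 0.0351) against adult hepatocytes. It lost the calls of Ackr2 and Ccr7 in OC.2- and of Il17b, Il17f and Il21 in OC.2+ cells against adult hepatocytes.

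Signs turned only for differences that were not called. Between the fetal groups Il7r went to -0.0312, -0.0053 and -0.0282 under these scalings in that order. With 1 array left out it ran from -0.0554 to 0.0312 and Il2rg from -0.159 to 0.017. In OC.2- cells against adult hepatocytes Cxcr4 went to -0.0182 with quantile normalization and -0.0288 with median centring. Il6r went to 0.001 with quantile normalization and ran from -0.397 to 0.0341 with 1 array left out. The cause of these changes was not tested. Signals near the olfactory range limit what can be said of dim members, whose differences can be understated.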

Other observations

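Cytokine genes named outside these families were also read. Lifr, the receptor of leukaemia inhibitory factor that signals with Il6st, was 3.45-fold higher in OC.2- cells than in adult hepatocytes (adjusted p = 8.42e-08) and 4.30-fold lower in OC.2+ than OC.2- cells (adjusted p = 1.77e-08). Osmr, which also pairs with Il6st, went the same way at 1.59-fold and 1.55-fold. Rarres2, the attractant chemerin made by hepatocytes, was 15.2-fold and 31.9-fold lower in OC.2- and OC.2+ cells than in adult hepatocytes (adjusted p = 1.4e-11 and 5.8e-13). The platelet chemokines Pf4 and Ppbp, CXC ligands by structure, were 2.78-fold and 3.42-fold higher in OC.2+ than OC.2- cells (adjusted p = 7.39e-08 and 3.26e-09), against the direction of the 7 CXC ligands that fell. Csf3r, the receptor of the neutrophil growth factor, was 3.29-fold higher there. Tnf, dim on the adult arrays at 6.32, 6.36 and 6.03, measured 7.41, 6.96 and 7.45 in OC.2- and 6.76, 6.76 and 6.76 in OC.2+ cells.

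Of 16 measured acute-phase genes, targets of interleukin-6 and interleukin-1 in hepatocytes, 14 fell and 2 rose in OC.2+ against OC.2- cells (median -2.22). Over all genes 18.2% fell and 20.3% rose there. All 10 hepatocyte markers also fell there (median -1.96), and Fgb and Serpina1 are in both lists. In OC.2- cells against adult hepatocytes 11 acute-phase genes fell and 1 rose (median -1.44), beside 20.9% and 23.7% of all genes. Of the hepatocyte markers 4 fell and 1 rose in that comparison (median -0.14). The part of interleukin signalling or of hepatocyte content in these counts was not tested. Lbp, the lipopolysaccharide-binding protein, was one that rose between the fetal groups, 4.24-fold (adjusted p = 4.93e-09), at 11.07, 11.17 and 11.35 on the adult, 8.71, 8.86 and 8.5 on the OC.2- and 10.78, 10.85 and 10.68 on the OC.2+ arrays. The 3 fibrinogen chains Fga, Fgb and Fgg were not called between OC.2- cells and adult hepatocytes (0.03 ± 0.09, 0.14 ± 0.09 and 0.07 ± 0.08), while Crp was 6.92-fold and Cp 8.31-fold lower.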
